A study of Homo sapiens with 8 samples.

Results

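Glycolysis turns glucose into pyruvate and lactate, and 9 genes of this pathway were followed here through histone H3 trimethylated at lysine 36 (H3K36me3). The genes were HK2, GPI, PFKL, ALDOA, TPI1, GAPDH, ENO1, PKM and LDHA. Every called H3K36me3 peak that overlapped one of their spans in genome build hg19 by at least 1 bp was taken. That gave 13 of the 35375 peaks of the control cells and 12 of the 23488 peaks of the SETD2 knockdown cells. The cells were HepG2, a human hepatocellular carcinoma line, infected with lentivirus and selected with puromycin. They stably carried either an shRNA against SETD2 or a non-specific control shRNA, so the controls share the infection and the selection. Each of these conditions had an H3K36me3 immunoprecipitate and an input library in 2 replicates, which the submitters merged before calling peaks. With 1 merged list for each condition, neither a replicate error nor a test of knockdown against control could be had, and all intervals cover counting error only. No measurement of SETD2 itself and no hepatocyte marker was analysed here.

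SETD2 is the methyltransferase that trimethylates H3K36 in human cells. It travels with elongating RNA polymerase, so the mark lies over the bodies of transcribed genes, usually rising after the promoter and reaching to the 3′ end. Glycolytic enzymes are among the most abundantly transcribed genes of many cultured cancer lines. The merged immunoprecipitates came to 47880817 (control) and 67053273 (knockdown) tags without duplicates, and the inputs to 67158956 and 69095038. Levels are given as tag density, which is tags per kb of peak per 1000000 filtered tags of that immunoprecipitate. Over the whole lists this density was 1.84 inside control peaks and 1.15 inside knockdown peaks, and 0.235 and 0.337 outside them.

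All 9 genes carried H3K36me3 in the control cells, and 8 of them still had a called peak in the knockdown cells. HK2 was the exception. The caller estimates a false discovery rate (FDR) by exchanging immunoprecipitate and input. At an FDR of at most 5%, TPI1 and PFKL had no knockdown peak either, which left 6 genes. Of the 13 control peaks, 10 were overlapped by a knockdown peak, against 39.5% of all control peaks. All 12 knockdown peaks lay on a control peak, against 83.0% of all knockdown peaks. These shares of all peaks are not matched for strength, and the 13 control peaks had a median density percentile of 95.8. The overlapped share was 86.9% among control peaks with at least 1000 tags and 76.4% among those with a density of at least 4. The 10 of 13 therefore do not show unusual retention at these genes. At each of the 8 genes marked in both lists the density was lower in the knockdown, with a median log2 ratio of -0.92 (1.89-fold lower). The median over all 13963 control peaks with a knockdown peak over them was -0.66 (quartiles -0.86 and -0.44), and 97.0% of those were lower. In 7 of the 8 genes the density was lower by at least 1.5-fold, where the share over all overlapped control peaks was 59.2%. In 3 of the 8 it was lower by at least 2-fold, where that share was 13.1%. All 3 had a control density of at least 4, and among overlapped control peaks of that density the share was 62.2%. Those 320 peaks had a median log2 ratio of -1.08, and 5 of the 8 genes had such a density. Neither the -0.66 nor the 59.2% is matched for strength, so a greater loss at these genes is not shown.

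**Figure D1:**
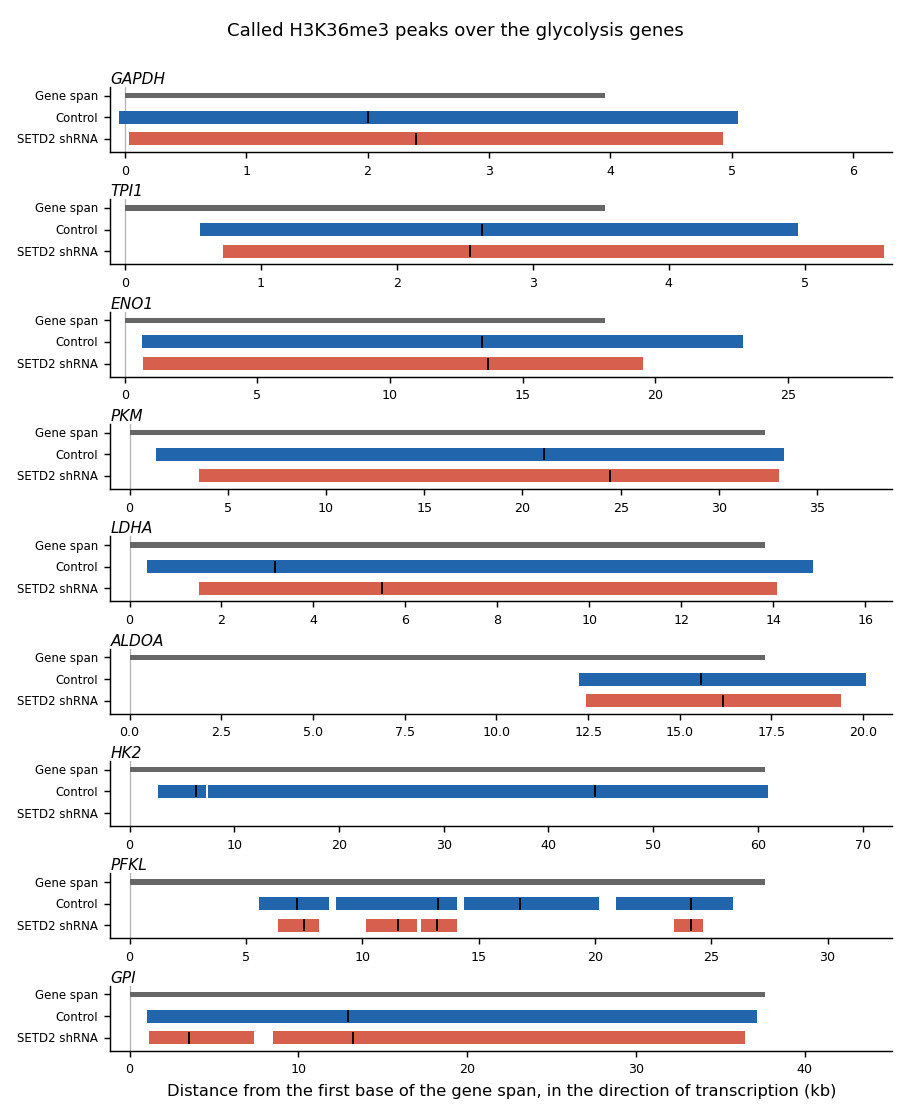
Called H3K36me3 peaks over the 9 glycolysis genes (blue, control shRNA; red, SETD2 shRNA) below the gene span (grey), against the distance in kb from the first base of the span in the direction of transcription, each gene on its own scale. Black ticks mark the highest point of each peak; HK2 has no knockdown peak, PFKL holds 4 short ones, and the control peak of ALDOA starts 12249 bp into the span.

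The mark lay over gene bodies rather than starts. In the control, the first called base came after the first base of the gene in 8 of 9 genes, by 383 bp at LDHA, 555 bp at TPI1, 643 bp at ENO1, 1028 bp at GPI and 1365 bp at PKM. At GAPDH it came 51 bp before it. HK2 and PFKL were called from 2679 and 5574 bp into the gene. ALDOA was called only from 12249 bp into its 17.3 kb span, which is longer than the 6.14 kb that RefSeq (GRCh38.p14) gives the gene. The GPI span of 37.7 kb is instead shorter than the 42.7 kb that RefSeq gives. Distances and covered shares at both genes refer to the spans. In the knockdown the first called base lay further in at all 8 genes that had a peak, by the largest steps at PKM (3538 bp into the gene) and LDHA (1517 bp). The last called base lay nearer to the start in 7 of the 8, and only at TPI1 did the knockdown peak reach further, to 2052 bp past the gene's end against 1423 bp in the control. A weaker signal crosses a calling limit over a shorter stretch, so these edges and the densities are not independent measures.

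RefSeq promoters (GRCh38.p14, 250 bases before to 50 after a transcription start) were found for all 9 genes, 14 windows in all. The 3 printed here belong to the gene with the lowest ratio of densities inside called peaks (LDHA), the gene without a knockdown peak (HK2) and the gene with the highest such ratio (PFKL), an order that other measures of density turn, each from the start that opens the RefSeq gene. They show the stretch ahead of the marked gene body. Capitals mark ACGTG on either strand. It is a form of the core that hypoxia-inducible factors recognise, and part of CACGTG, the E-box that proteins such as MYC recognise. Other forms of these sites were not searched, so a window without ACGTG may still hold them.
LDHA (chr11:18394313-18394612, plus strand): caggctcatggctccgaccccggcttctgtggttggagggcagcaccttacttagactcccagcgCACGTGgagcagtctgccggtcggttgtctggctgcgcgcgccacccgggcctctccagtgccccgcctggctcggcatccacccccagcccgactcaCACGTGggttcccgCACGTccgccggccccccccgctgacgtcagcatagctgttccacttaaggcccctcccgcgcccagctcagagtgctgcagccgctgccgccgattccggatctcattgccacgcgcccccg
HK2 (chr2:74833877-74834176, plus strand): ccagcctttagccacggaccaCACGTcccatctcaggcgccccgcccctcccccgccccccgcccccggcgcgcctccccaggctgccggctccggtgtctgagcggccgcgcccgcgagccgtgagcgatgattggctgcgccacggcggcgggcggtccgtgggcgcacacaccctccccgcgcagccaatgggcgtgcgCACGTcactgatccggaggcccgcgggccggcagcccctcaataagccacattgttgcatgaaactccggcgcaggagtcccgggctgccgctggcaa
PFKL (chr21:44299803-44300102, plus strand): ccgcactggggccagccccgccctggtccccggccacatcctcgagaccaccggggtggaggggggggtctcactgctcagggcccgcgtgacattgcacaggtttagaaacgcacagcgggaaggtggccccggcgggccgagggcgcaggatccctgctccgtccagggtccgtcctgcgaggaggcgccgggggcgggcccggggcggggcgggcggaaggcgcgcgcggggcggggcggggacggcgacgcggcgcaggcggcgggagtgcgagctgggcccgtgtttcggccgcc
ACGTG occurred in 9 of the 14 windows, over 6 of the 9 genes, and in 21.4% of all 35116 promoter windows of the same length. Its palindromic form CACGTG, which holds ACGTG on both strands, occurred in 4 of the 14 windows and in 7.26% of all. The printed LDHA window held CACGTG from bases 66 and 164 and a further ACGTG match from base 178. The printed HK2 window held ACGTG matches from bases 22 and 203 but no CACGTG, and the PFKL window held no ACGTG. The windows not printed differed: that of HK2 held CACGTG from bases 57 and 102, and that of LDHA held no ACGTG. The 14 windows held 55.7% to 78.3% GC, where the median of all promoters was 58.7%, and no allowance was made for base composition. Windows of one gene were counted separately, and some ALDOA windows overlap. A match is only a run of letters, and factor binding was not measured here.

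The first steps of the pathway held both the widest marked domain and the weakest. HK2 encodes hexokinase 2, which phosphorylates glucose on entry. Its span (chr2:75059782-75120486, 60.7 kb) carried 2 control peaks separated by 212 bp, one of 4.64 kb with 327 tags and one of 53.4 kb with 11111 tags. Their densities were 1.47 (95% Poisson interval 1.32 to 1.64) and 4.35 (4.27 to 4.43), and together they covered 95.2% of the gene. The long one ranked 53rd of all control peaks by tags and 315th by density.

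No knockdown peak touched HK2. The nearest knockdown peaks lay 72.5 kb before and 65.5 kb after the gene, with densities of 1.12 and 1.18. The files give tags only inside called peaks, so the knockdown density over HK2 is unknown and a missing call does not show that the mark was absent. Loss of the call was common among control peaks with so many tags: of the 72 with at least 10000 tags, 44.4% were overlapped by a knockdown peak, against 86.9% of those with at least 1000 tags. Among control peaks with a density of at least 4 the overlapped share was 76.4%. In the knockdown list no peak reached 10000 tags (the highest held 8905) and the widest was 48.7 kb. Of the 150 control peaks wider than that, 110 were nevertheless overlapped by a knockdown peak.

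GPI encodes glucose phosphate isomerase, the next enzyme in the pathway. Its span (chr19:34855645-34893318, 37.7 kb) lay under a single control peak of 36.2 kb with 4636 tags and a density of 2.68 (2.60 to 2.76). In the knockdown it was called as 2 peaks of 6.26 and 28.0 kb, 1088 bp apart, with densities of 1.53 (1.42 to 1.66) and 1.45 (1.397 to 1.51). The broken call still covered 90.9% of the gene, against 96.0% in the control. The difference in density was 1.83-fold (95% interval 1.75 to 1.91). The caller's FDR was 2.35% for the short knockdown peak and 25.1% for the long one, although the long one held 2722 tags and the short one 644.

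PFKL encodes the liver type of phosphofructokinase, the enzyme of the committed step. It had the lowest density of the 9 genes in the control and of the 8 in the knockdown. Over its span (chr21:45719934-45747259, 27.3 kb) the control had 4 peaks of 3.01 to 5.79 kb, with densities of 1.12, 1.43, 1.002 and 0.928 from the 5′ to the 3′ side. The second stood above the third and the fourth beyond the Poisson intervals, and its interval overlapped that of the first. The knockdown had 4 short peaks of 1.25 to 2.19 kb with densities from 0.702 to 0.844, and no knockdown peak lay on the third control peak. Control peaks covered 69.8% of the gene and knockdown peaks 24.6%. Summed over the gene, density was 1.12 (1.05 to 1.19) and 0.766 (0.688 to 0.852), or 1.46-fold lower (1.29 to 1.65). These densities rest on 19.1 kb of control peaks and 6.73 kb of knockdown peaks, so only the stretches that passed the caller enter the knockdown value. With the knockdown tags set over the control length instead, the log2 ratio was -2.05 in place of -0.55. All 4 knockdown peaks had an FDR of 67.7% or more.

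**Figure D2:**
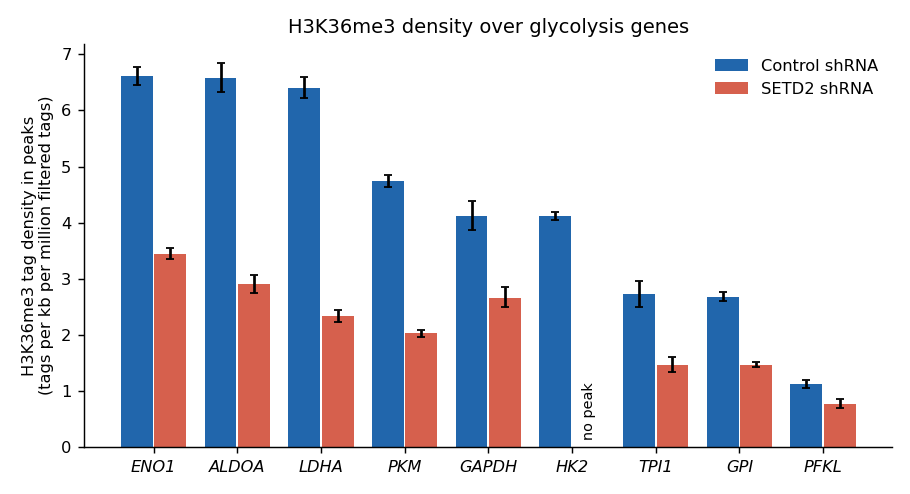
H3K36me3 tag density (tags per kb per 1000000 filtered tags) over all peaks at each gene, control shRNA in blue and SETD2 shRNA in red, with 95% Poisson intervals for counting error, in order of the control density. Control densities run from 6.61 at ENO1 to 1.12 at PFKL, the knockdown is lower at each of the 8 genes with a value, and HK2 has no knockdown peak.

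The 3 genes in the middle of the pathway had the shortest control peak length summed per gene, with 1 peak each. ALDOA encodes aldolase A, which splits fructose bisphosphate into a pair of triose phosphates. Over its span (chr16:30064411-30081741), the control peak of 7.83 kb (2465 tags) had a density of 6.58 (6.32 to 6.84), and the knockdown peak of 6.97 kb (1355 tags) had 2.90 (2.75 to 3.06). The difference was 2.27-fold (2.12 to 2.43). Both peaks ran past the gene's end, by 2744 and 2072 bp, in the direction of PPP4C, the next coding gene downstream in RefSeq order. LOC112694756 overlaps ALDOA in RefSeq, and tags in the shared stretch cannot be split between the genes.

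TPI1 encodes triose phosphate isomerase, which interconverts the products of aldolase. It is the shortest of the 9 genes (chr12:6976584-6980112, 3.53 kb). Its control peak held 573 tags, the fewest of the 9 genes, and its knockdown peak held 475. The densities were 2.72 (2.50 to 2.95) and 1.46 (1.33 to 1.59), a 1.87-fold difference (1.65 to 2.11). SPSB2 overlaps the end of TPI1 in RefSeq, and tags there cannot be split between the genes. The control peak had an FDR of 0% and the knockdown peak one of 38.6%.

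GAPDH encodes the dehydrogenase that oxidises glyceraldehyde phosphate and is a common reference gene for expression. Its control peak (5.11 kb, 1008 tags) covered the whole span (chr12:6643585-6647537) and had a density of 4.12 (3.87 to 4.38). Its knockdown peak (4.90 kb, 875 tags) covered 99.2% of the span with a density of 2.66 (2.49 to 2.85), which is 1.55-fold lower (1.41 to 1.70). That placed GAPDH 5th in the control, level with HK2 within counting error, and 3rd in the knockdown, level with ALDOA. Of 320 overlapped control peaks with a density of at least 4, 13 had a log2 ratio above the -0.63 of GAPDH. The median of the 320 was -1.08 (quartiles -1.30 and -0.90).

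Of the genes marked in both lists, ENO1 and PKM carried the most tags. ENO1 encodes enolase 1, which forms phosphoenolpyruvate. It had the highest density in both lists, 6.61 (6.46 to 6.77) in the control and 3.44 (3.34 to 3.55) in the knockdown, a 1.92-fold difference (1.85 to 1.99). Those values ranked 44th of all control peaks and 26th of all knockdown peaks. The control peak of 22.7 kb ran 5205 bp past the end of the gene, towards RERE, and the knockdown peak of 18.8 kb ran 1449 bp past it. Over the gene itself (chr1:8921059-8939151) the covered share was nearly the same, 96.4% and 96.2%.

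PKM encodes pyruvate kinase of muscle and proliferating cells, which makes pyruvate and ATP. Its control peak of 32.0 kb (7261 tags) had the 22nd highest fold enrichment of all control peaks, 29.51 by the authors' caller. The knockdown peak of 29.5 kb (4012 tags) ranked 48th in its own list, with 10.93. Fold enrichment is the caller's value against its own input and ranks peaks only within a list. The control density was 4.74 (4.64 to 4.86) and the knockdown density 2.03 (1.96 to 2.09), or 2.34-fold lower (2.25 to 2.43). Covered length over the gene (chr15:72491370-72523727) was 95.8% and 89.1%.

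LDHA encodes the lactate dehydrogenase subunit that favours reduction of pyruvate to lactate. Inside called peaks it had the greatest difference among the 8 genes: a density of 6.41 (6.22 to 6.60) in the control (14.5 kb, 4440 tags) and 2.34 (2.23 to 2.44) in the knockdown (12.6 kb, 1967 tags). The knockdown value was 2.74-fold lower (2.60 to 2.89), a log2 ratio of -1.46. With knockdown tags set over the control length, LDHA stood at -1.66 and PFKL, at -2.05, was lower. Of the 13963 overlapped control peaks, 1.03% had a ratio as low or lower. Among the 320 with a control density of at least 4, 11.9% did. Of the 5 glycolysis genes with such a density and a peak in both lists, 3 were lower by at least 2-fold, which is near the share of 62.2% among the 320. The highest point of the peak lay 3168 bp into the gene (chr11:18415936-18429765) in the control and 5490 bp into it in the knockdown.

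**Figure D3:**
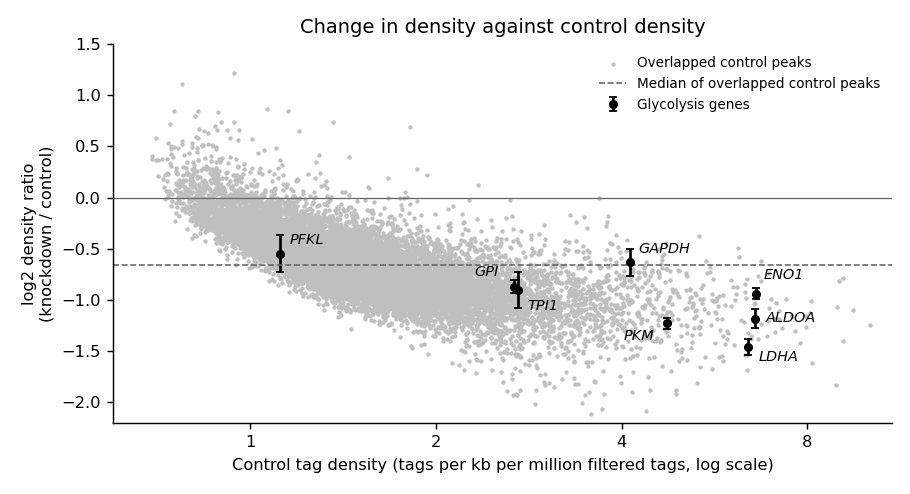
Log2 ratio of knockdown over control tag density against control tag density (log scale) for the 13963 control peaks with a knockdown peak over them (grey) and the 8 glycolysis genes marked in both lists (black, with exact 95% intervals for counting error). The dashed line is the median of the grey points, -0.66; LDHA lies at -1.46, and GAPDH at -0.63 lies above ENO1, ALDOA, PKM and LDHA.

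Only part of the order of the genes by ratio exceeded counting error. LDHA (-1.46) was below PKM (-1.23) and ALDOA (-1.18), whose intervals overlapped each other. ENO1 (-0.94), TPI1 (-0.90) and GPI (-0.87) followed, each overlapping the next. GAPDH (-0.63) and PFKL (-0.55) came last, and their intervals overlapped. The interval of GPI stood apart from that of GAPDH, but that of TPI1 (-1.08 to -0.72) reached those of GAPDH (-0.76 to -0.50) and PFKL (-0.73 to -0.37). The control densities of LDHA, ALDOA and ENO1 overlapped one another within counting error. In the knockdown their values, 2.34, 2.90 and 3.44, stood apart from one another, though that of ALDOA overlapped that of GAPDH. The spread between cultures is unknown, so the order describes these merged libraries. Control density enters both axes of the plot of ratio against control density, so part of its downward trend is built in.

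The difference in density was larger above the level outside peaks. Arithmetic alone sets this direction, because the larger level is taken off the lower density, so only the sizes are informative. After taking off 0.235 from the control and 0.337 from the knockdown, the 8 genes were lower by 1.67-fold (GAPDH) to 3.09-fold (LDHA), with a median of 2.19-fold. PFKL moved the furthest, from 1.46-fold to 2.06-fold, since its knockdown density of 0.766 stood only 0.429 above that level. Both libraries were scaled by their own filtered tags, and a scale set by added reference chromatin was not used here.

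**Figure D4:**
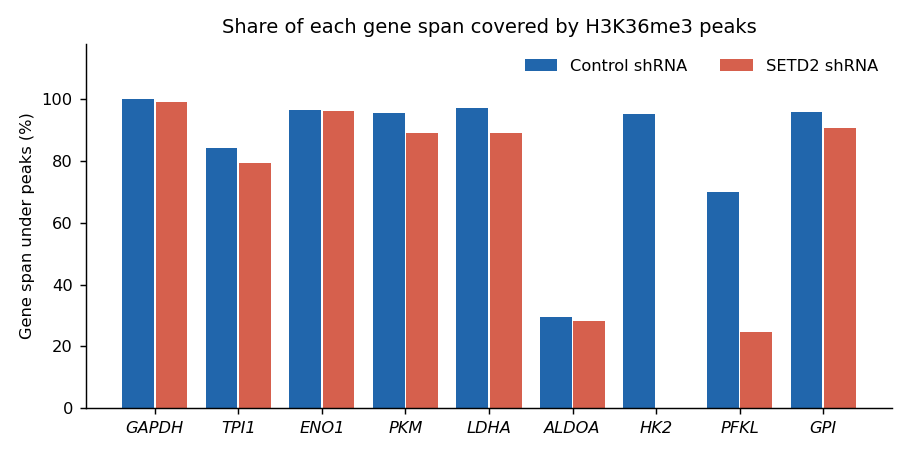
Percent of each gene span under H3K36me3 peaks in the control (blue) and knockdown (red). The knockdown share is at least 79.6% at 6 of the 9 genes, with PFKL at 24.6% and HK2 at 0% below them; ALDOA, at 28.2%, is measured over a span of 17.3 kb that is longer than its RefSeq gene of 6.14 kb.

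Covered length differed little at most of these genes even where the density differed more. Control peaks covered 87.0% of the 214.8 kb of summed spans and knockdown peaks 51.7%, and without HK2 the shares were 83.8% and 72.1%. At 7 of the 8 genes marked in both lists the knockdown covered at least 91.6% of the length covered in the control, and at PFKL it covered 35.3%. LDHA shows the separation, with 91.6% of the covered length at 36.5% of the density. Taken over whole peaks rather than gene spans, knockdown peaks covered 83.2% of the control peak at ENO1, 86.8% at LDHA and 89.0% at ALDOA, where the median over all overlapped control peaks was 68.5%. At GAPDH, TPI1, PKM and GPI the share was 92.4% to 96.2%. At PFKL the 3 overlapped control peaks stood at 58.3%, 71.0% and 24.9%. The median of 68.5% is not matched for the strength of the peaks.

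The caller's confidence did not follow the tags at these genes. The score is minus 10 times the log10 of the caller's p-value. Of the 13 control peaks, 12 had an FDR of 5% or less, against 50.5% of all control peaks, and the shorter HK2 peak stood at 5.23%. Of the 12 knockdown peaks, 6 did, against 5.30% of all knockdown peaks. Of the 13 control peaks 5 had a score of 3100 (GAPDH, ALDOA, ENO1, PKM and LDHA), a value shared by 3.73% of all control peaks. With 1318 control peaks tied there, the score cannot rank these 5. GAPDH reached 3100 with 1008 tags. HK2, with 11111 tags in its long peak, scored 1340.97, and GPI, with 4636, scored 2156.85. In the knockdown PKM held 4012 tags at 1761.26, and LDHA 1967 tags at 3142. Scores therefore do not order these peaks by their tags. Against density they ran closer: the 5 control peaks at 3100 had densities of 4.12 to 6.61. The GPI and TPI1 control peaks (2.68 and 2.72) scored 2156.85 and 2034.22, and those of PFKL 972.35 or less. Both HK2 peaks were exceptions. The long one had a density of 4.35, and the short one (1.47) scored 218.53, below every PFKL control peak (327.85 or more). In the knockdown, LDHA (2.34, score 3142) scored above ALDOA (2.90, score 2027.05), and PKM (2.03, score 1761.26) slightly above GAPDH (2.66, score 1745.79). ENO1 (3.44) stood at 3100, the value tied in the control list, and was not ranked by score.

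**Figure D5:**
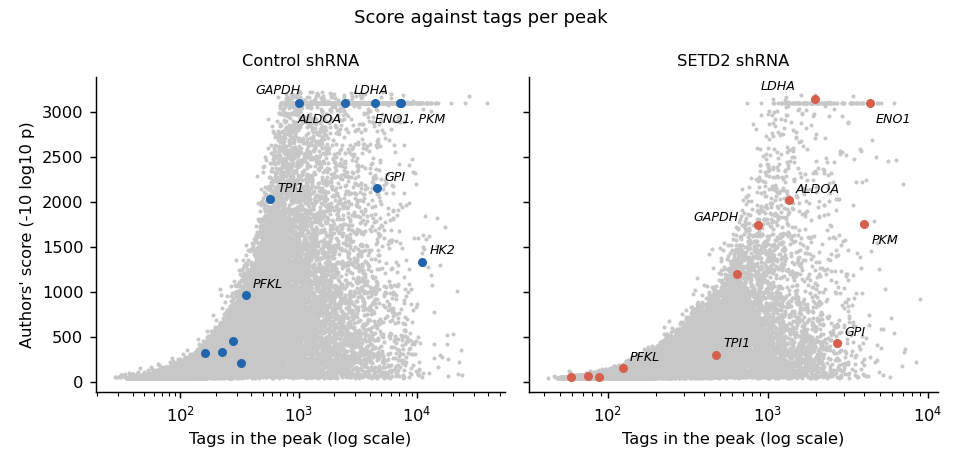
The authors' score per peak (minus 10 times log10 of p) against tags in the peak (log scale) for all peaks (grey) and the glycolysis gene peaks (coloured), control on the left and knockdown on the right; the peak with the most tags is named for each gene. HK2, with 11111 control tags, scores 1340.97, below GAPDH with 1008 tags at 3100.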

How the data were processed

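H3K36me3 ChIP-seq and input libraries of HepG2 cells with a control or a SETD2 shRNA (2 replicates in each of 4 groups) were analysed from the deposited peak tables. Virus was collected at 48 and 72 h and added with 4 µg/mL polybrene, and puromycin was used at 1 µg/mL, per the labels' protocols. The submitters' processing notes name Bowtie 1.1.2, FastQC 0.11.5 and hg19. MACS 1.4.2, per the file headers, called peaks from 1 merged immunoprecipitate against 1 merged input per condition (p-value limit 1e-05, fragment size 294 bp, 1 tag kept per position).

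The deposited tag counts are whole tags per peak, not normalized. The deposited score, the deposited fold enrichment ratio over local input and the deposited FDR in percent are the caller's. The shorter deposited lists hold the peaks with an FDR of 5% or less, with the same fold ratio.

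Peaks overlapping a gene span by 1 bp were taken, and tags and lengths were summed per gene. Density intervals are exact Poisson and ratio intervals exact conditional binomial (95%), for counting error only. Steps were tested on simulated data. For all overlapped control peaks the knockdown peaks over each were summed in the same way. All 9 genes in the rule were named. The members and lists were chosen with earlier results of these data known. Other pathway genes and marker genes were not analysed here, since hg19 spans were used for the 9 genes alone. RefSeq (GRCh38.p14) gave strand, neighbours, gene length and promoters. Python 3.11.15, pandas 2.3.3, NumPy 2.4.6, SciPy 1.17.1 and matplotlib 3.10.9 were used.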

Additional observations from a re-analysis of the deposited data

How the results depend on the processing

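No paired analysis was possible because the submitters merged the replicates before calling peaks, and for the same reason no replicate could be left out. Of 75 density ratios of single genes under 10 alternatives, all 75 were below 0. Many of the 75 repeat the main value, since the setting left that gene's peaks unchanged. Taking off the density outside peaks could only lower a ratio already below 0. The count is therefore not 75 separate checks. All 9 genes had a control peak under each setting except a span covered to at least 50%, which left 8 (without ALDOA), and 6 with a knockdown peak. With an FDR of 5% or less, or the shorter deposited lists, 6 genes had a knockdown peak (TPI1 and PFKL had none, as HK2), control peaks covered 84.9% of the spans and knockdown peaks 34.3%, and the median log2 ratio over 6 genes was -1.06 (FDR limit). With a fold enrichment of 5 or more, 7 genes had a knockdown peak and coverage was 79.8% and 48.6%. A score of 100 or more gave 49.6% in the knockdown, and spans extended by 1000 bp gave 83.1% and 49.9%. The median log2 ratio was -1.13 above the density outside peaks. With knockdown tags spread over the control length, an alternative chosen after seeing the data, it was -1.27, and PFKL, at -2.05, was then below LDHA (-1.66). LDHA had the lowest ratio in the other 9 alternatives. The causes were not tested.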
